A study of Mus musculus with 9 samples.

Results

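C-type lectin receptors are surface proteins with which myeloid cells such as monocytes, macrophages, neutrophils and dendritic cells bind sugars, glycolipids and other ligands on fungi, mycobacteria and dying cells. Activating receptors of this family signal through the kinase Syk, either by a tyrosine motif of their own or through adaptors such as the Fc receptor gamma chain (Fcer1g) and DAP12 (Tyrobp), and Syk hands the signal to Card9 and NF-kB. Inhibitory receptors carry a tyrosine motif that recruits the phosphatases SHP-1 and SHP-2, and others mainly take up the ligands they bind. The genes described here were taken by name, and all 10 were found among the 55274 gene identifiers of each deposited table. They comprise 5 activating receptors (Clec7a, Clec4n, Clec4d, Clec4e and Clec5a), the inhibitory receptors Clec4a2 and Clec12a, their relatives Clec4a1 and Clec4a3, and the endocytic receptor Clec10a.

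RNA was sequenced from 9 libraries of mouse bone marrow cells, 3 of cells carrying NRASG12D, a RAS protein locked in its active form, 3 of cells carrying NUP98-NSD1, a fusion of a nuclear pore protein with a histone methyltransferase, and 3 of cells carrying both (NUP98-NSD1+NRASG12D). The donors were C57BL6/J mice aged 6 to 8 weeks that had received 5-fluorouracil at 150 mg/kg 4 days before the marrow was taken. The cells were stimulated for 48 h in medium with 15% fetal bovine serum, 10 ng/mL human IL-6, 6 ng/mL murine IL-3 and 20 ng/mL murine SCF, then transduced with retroviral vectors, sorted by fluorochrome and expanded in culture. None of the 9 libraries came from untransduced or vector-only cells, so each group is described relative to another transduced group. Nothing states that replicates came from separate cultures or animals, so the p-values measure only the spread between these samples. Levels are FPKM, which divide the fragments of a gene by its length and the depth of the library, and values are listed in the order of replicates 1, 2 and 3. The depth in megafragments (the M of FPKM), estimated from the steps between low FPKM values, was 25.1, 37.0 and 23.5 in NRASG12D libraries, 30.7, 27.6 and 25.1 where the fusion was alone, and 29.5, 25.5 and 23.8 in those with both. At these depths 3 fragments on a transcript of 1 kb give between 0.081 and 0.128 FPKM, and this floor covers counting error only.

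Summed over the 10 receptor genes, the level was 23.9, 48.7 and 29.4 FPKM in NRASG12D, 376, 322 and 246.5 FPKM in NUP98-NSD1, and 583, 1082 and 1241 FPKM in NUP98-NSD1+NRASG12D libraries. The sums of the groups did not overlap, and every library with NUP98-NSD1 lay above every NRASG12D library. In bulk RNA, fewer cells of a type and less RNA per cell cannot be told apart. Clec10a held 79.6%, 73.1% and 83.6% of the sum in the NRASG12D libraries, 10.9%, 13.0% and 16.6% in the NUP98-NSD1 libraries, and 0.791%, 1.53% and 0.259% in the libraries with both. It was the highest of the receptor genes in each NRASG12D library, while Clec5a or Clec4n was the highest in each of the other 6 libraries. Clec4n held this place in replicate 3 of NUP98-NSD1 and in replicate 2 of NUP98-NSD1+NRASG12D, and Clec5a in the remaining 4 libraries.

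**Figure D1:**
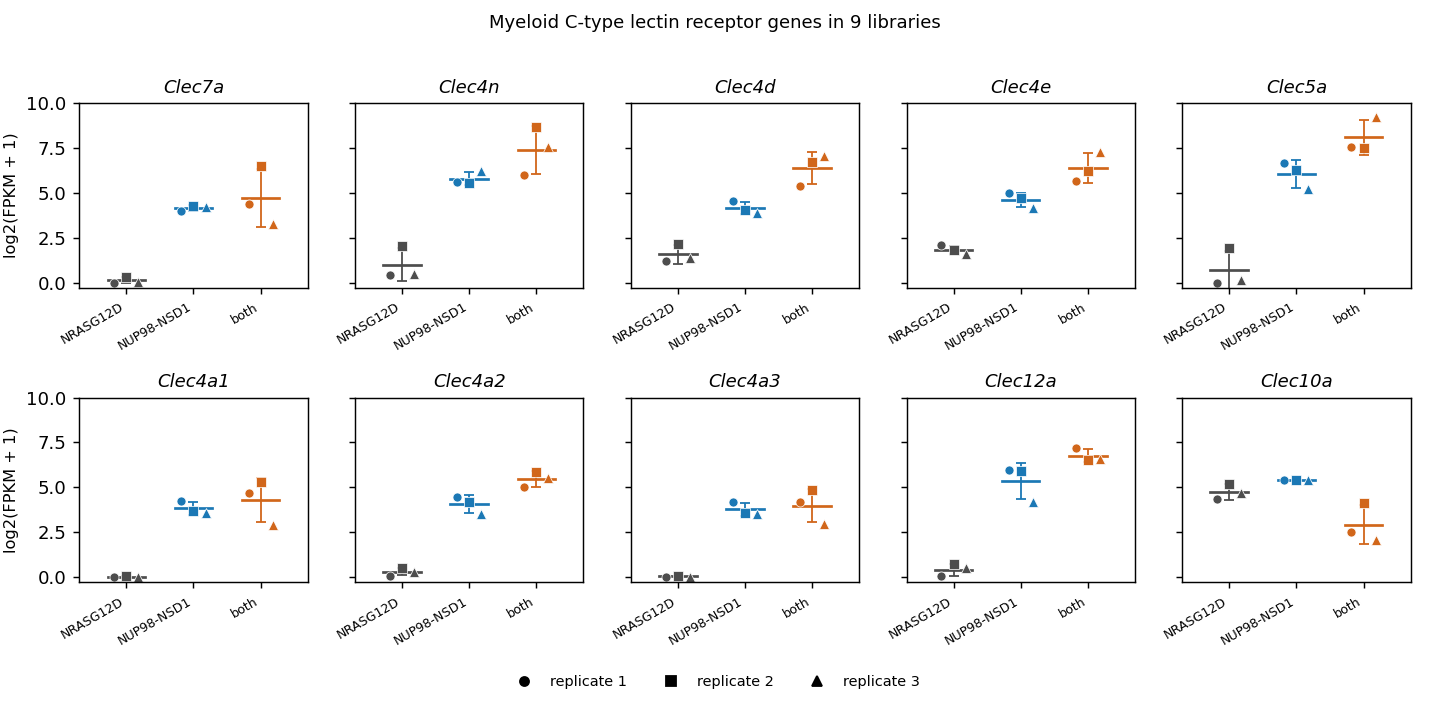
Level of each receptor gene as log2(FPKM + 1) in the 9 libraries, with points shaped by replicate, a line at the mean and an error bar of 1 SD over the 3 libraries of a group ("both" is NUP98-NSD1+NRASG12D). All genes but Clec10a lie higher in each library with NUP98-NSD1 than in each NRASG12D library, and Clec10a lies lowest in the libraries with both.

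The comparison of NUP98-NSD1 with NRASG12D cells asks how the receptors differ between cells carrying the fusion and cells carrying the RAS mutant. All 10 genes were higher in NUP98-NSD1 cells at an adjusted p under 0.05 in limma, and 0 were lower, where 42.2% of the 13493 tested genes were higher and 9.98% lower. The groups did not overlap for any of the 10, each higher in NUP98-NSD1, and such a gap was found for 50.7% of all tested genes in this direction and for 13.5% in the other. The median log2 fold change was 3.80 over the receptors and 0.27 over all tested genes, and 6.30 and 0.32 with a pseudocount of 0.1 in place of 1. Median-ratio scaling of the libraries moved these medians to 3.64 and 0.01, and quantile normalization to 3.66 and -0.04. The balance of directions among called genes depends on scaling, with 80.9% higher as deposited, 52.3% after median-ratio scaling and 46.7% after quantile normalization. Clec10a lost its call after either scaling and in 9 of 13 alternatives in all, while the other 9 receptors kept theirs. Genes were tested if they reached 1 FPKM in at least 3 libraries, and all 10 did. Clec7a, Clec4a1, Clec4a2, Clec4a3 and Clec12a stayed under 1 FPKM in every NRASG12D library, and Clec4n and Clec5a reached it in replicate 2 only. These 7 passed through the groups with the fusion, so the filter itself favours a difference for them. Clec4d, Clec4e and Clec10a were at 1 FPKM or more in every NRASG12D library.

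NUP98-NSD1+NRASG12D cells were compared with the same NRASG12D libraries, which the comparison above shares. Here 9 receptor genes were higher and Clec10a was lower at an adjusted p under 0.05, against 24.2% and 14.1% of all tested genes. The groups were apart for the same 9 genes upward and for Clec10a downward, against 38.7% and 19.9% of tested genes. The receptors had a median log2 fold change of 4.72, or 7.22 with the pseudocount of 0.1, and all tested genes one of 0.23, or 0.06 after median-ratio scaling. The balance of directions among called genes depends on scaling, with 63.1% higher as deposited, 53.1% after median-ratio scaling and 41.8% after quantile normalization, while 9 receptors stayed higher and Clec10a lower in each.

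What NRASG12D adds to the fusion is asked by comparing NUP98-NSD1+NRASG12D with NUP98-NSD1 cells, where fewer receptor genes passed the test. Clec4d and Clec4a2 were higher and Clec10a was lower at an adjusted p under 0.05, where 2.30% of tested genes were higher and 6.31% lower. The other 7 did not pass. Libraries with both lay above all NUP98-NSD1 libraries for 5 receptors, namely Clec4d, Clec4e, Clec5a, Clec4a2 and Clec12a, and below them for Clec10a, and the shares of all tested genes were 11.6% and 19.8%. The median log2 fold change was 1.41 over the receptors and -0.06 over all tested genes. A two-sided exact permutation test of 3 libraries against 3 gives p = 0.1 at the least. Groups without overlap always reach this value, so it restates the overlap and is no further test. Each receptor reached it in both comparisons with NRASG12D. Of all tested genes, 50.7% had no overlap upward and 13.5% downward with NUP98-NSD1, and 38.7% and 19.9% with both. Against NUP98-NSD1, the same 6 genes without overlap reached it in the libraries with both. These 3 calls lie close to the threshold, and with a library fewer the number of receptors called was 0 without NUP98-NSD1 replicate 1, 2 or 3 or NUP98-NSD1+NRASG12D replicate 3, 1 without NUP98-NSD1+NRASG12D replicate 2, and 5 without its replicate 1. In the fits that lost a call the log2 fold change stayed between 1.91 and 2.43 for Clec4d, 1.12 and 1.60 for Clec4a2, and -2.51 and -2.09 for Clec10a.

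Clec7a encodes Dectin-1, which binds fungal beta-glucans and signals to Syk by its own motif. The gene (ENSMUSG00000079293.11) lies on the minus strand of chromosome 6 from 129461591 to 129472779 of GRCm38 and is classed as a polymorphic pseudogene in the GENCODE M21 annotation. It had 0, 0.240 and 0.0400 FPKM in NRASG12D libraries, 14.7, 18.6 and 17.6 FPKM in NUP98-NSD1 libraries, and 19.8, 89.1 and 8.67 FPKM in libraries with both. The NUP98-NSD1 libraries were close together, whereas replicate 2 of NUP98-NSD1+NRASG12D was 10.3 times as high as replicate 3, which lay below every NUP98-NSD1 library. NRASG12D replicates 1 and 3 were at or under the level of 3 fragments for this gene. Over NRASG12D cells Clec7a rose by 4.04 on the log2 scale with NUP98-NSD1 (standard error 0.14, adjusted p = 1.81e-05) and by 4.59 with both (standard error 0.73, adjusted p = 0.00331). Between the groups with the fusion the log2 fold change was 0.55 (95% confidence interval -1.19 to 2.30, adjusted p = 0.749), with overlapping libraries and p = 0.7 in the exact permutation test, and its sign turned without replicate 2 of NUP98-NSD1+NRASG12D (-0.34).

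Clec4n encodes Dectin-2, a receptor for fungal mannans that pairs with the Fc receptor gamma chain. The gene (ENSMUSG00000023349.14) runs on the plus strand of chromosome 6 from 123229843 to 123247021. It had 0.322, 3.14 and 0.418 FPKM in NRASG12D libraries, 48.6, 45.6 and 72.5 FPKM in NUP98-NSD1 libraries, and 62.3, 404 and 185 FPKM in libraries with both. Replicate 2 was the highest of both the NRASG12D and the NUP98-NSD1+NRASG12D libraries, and replicate 1 with both lay under NUP98-NSD1 replicate 3, so these groups overlap. The rise over NRASG12D cells was 4.81 in NUP98-NSD1 cells (standard error 0.44, adjusted p = 0.000531) and 6.41 with both (standard error 0.72, adjusted p = 0.000824) on the log2 scale. Between the groups with the fusion the difference of 1.60 (0.12 to 3.09, adjusted p = 0.172, exact permutation p = 0.2) did not pass, but it passed without NUP98-NSD1+NRASG12D replicate 1 (2.31, adjusted p = 0.0173, where the 13 alternatives ran from 0.00854 to 0.445).

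Clec4d (MCL) and Clec4e (Mincle) encode receptors for glycolipids of the mycobacterial cell wall that also signal through the Fc receptor gamma chain. Clec4d (ENSMUSG00000030144.4, chromosome 6 from 123262111 to 123275265, plus strand) had 1.27, 3.42 and 1.60 FPKM in NRASG12D, 22.1, 15.5 and 13.9 FPKM in NUP98-NSD1, and 41.1, 106 and 135 FPKM in NUP98-NSD1+NRASG12D libraries. Clec4e (ENSMUSG00000030142.10, chromosome 6 from 123281789 to 123289870, minus strand) had 3.22, 2.48 and 2.05 FPKM in NRASG12D, 30.6, 24.96 and 17.1 FPKM in NUP98-NSD1, and 49.6, 73.3 and 158 FPKM in NUP98-NSD1+NRASG12D libraries. Both genes were detected in every library, and for both the 3 groups formed separate ranges, lowest in NRASG12D and highest with both. Clec4d rose by 2.59 (standard error 0.28, adjusted p = 0.000892) in NUP98-NSD1 and by 4.84 with both (standard error 0.47, adjusted p = 0.000442) over NRASG12D cells on the log2 scale. With both it also rose over the fusion alone, by 2.25 (standard error 0.44, 95% confidence interval 1.21 to 3.29, adjusted p = 0.0277), higher in 3 of 3 libraries. That call was lost without NUP98-NSD1 replicate 1, 2 or 3 (adjusted p = 0.0647, 0.102 and 0.114) and without NUP98-NSD1+NRASG12D replicate 2 or 3 (0.0675 and 0.0785), and the 13 alternatives spanned 0.00274 to 0.124. For Clec4e the rises over NRASG12D cells were 2.79 with the fusion alone (standard error 0.22, adjusted p = 0.00032) and 4.57 with both (standard error 0.40, adjusted p = 0.00031). Its difference of 1.78 between the groups with the fusion (0.76 to 2.80) missed the threshold at an adjusted p of 0.051 and passed without NUP98-NSD1+NRASG12D replicate 1 (adjusted p = 0.0213), with 0.00573 to 0.189 over the alternatives.

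Clec5a encodes MDL-1, which signals through DAP12 and DAP10 (Hcst) in place of the gamma chain. The gene (ENSMUSG00000029915.14) lies on the minus strand of chromosome 6 from 40574894 to 40585821, far from the other receptor genes of that chromosome. It had 0, 2.76 and 0.0826 FPKM in NRASG12D libraries, 101, 76.8 and 35.6 FPKM in NUP98-NSD1 libraries, and 190.4, 179 and 598 FPKM in libraries with both. NRASG12D replicate 2 stood apart from the other libraries of its group, and replicate 3 with both had the highest level of any receptor gene in the series. All libraries with both lay above all NUP98-NSD1 libraries. Clec5a rose over NRASG12D cells by 5.38 (standard error 0.58, adjusted p = 0.000907) with NUP98-NSD1 and by 7.42 (standard error 0.65, adjusted p = 0.000296) with both on the log2 scale, the latter the largest change among the receptors. The difference of 2.05 between the groups with the fusion (0.71 to 3.38, adjusted p = 0.071, exact permutation p = 0.1) did not pass. It passed with array weights (2.34, adjusted p = 0.0143), and the 13 alternatives ran from 0.0143 to 0.242.

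Clec4a2 encodes DCIR and Clec12a encodes MICL, inhibitory receptors that carry an ITIM, and Clec12a binds uric acid crystals. Clec4a2 (ENSMUSG00000030148.15, chromosome 6 from 123106428 to 123143999, plus strand) had 0.0517, 0.388 and 0.220 FPKM in NRASG12D, 21.4, 17.3 and 10.5 FPKM in NUP98-NSD1, and 30.9, 56.9 and 45.4 FPKM in NUP98-NSD1+NRASG12D libraries. Clec12a (ENSMUSG00000053063.11, chromosome 6 from 129342691 to 129365303, plus strand) had 0.0169, 0.614 and 0.404 FPKM in NRASG12D, 61.7, 58.6 and 17.1 FPKM in NUP98-NSD1, and 144, 92.6 and 94.6 FPKM in NUP98-NSD1+NRASG12D libraries. Neither gene overlapped between any pair of groups, and replicate 3 was the lowest NUP98-NSD1 library for both. They were also the receptors most alike among the libraries with both, where the highest value was 1.84 times the lowest for Clec4a2 and 1.55 times for Clec12a. The rise of Clec4a2 over NRASG12D cells was 3.79 (standard error 0.25, adjusted p = 0.000166) in NUP98-NSD1 and 5.19 with both (standard error 0.25, adjusted p = 5.14e-05) on the log2 scale, and that of Clec12a was 4.95 with the fusion alone (standard error 0.47, adjusted p = 0.000622) and 6.37 with both (standard error 0.25, adjusted p = 3.09e-05). With both, Clec4a2 rose over the fusion alone by 1.40 (0.65 to 2.14, adjusted p = 0.0424), in 3 of 3 libraries. This call was lost in fits without NUP98-NSD1 replicate 1, 2 or 3 (adjusted p = 0.0671, 0.122 and 0.128) or NUP98-NSD1+NRASG12D replicate 2 or 3 (0.091 and 0.125). It was also lost after median-ratio scaling (0.0506), with a replicate block (0.0589) and without the filter on low values (0.158), and over the 13 alternatives the adjusted p ran from 0.0121 to 0.158. Clec12a differed by 1.42 there (0.26 to 2.58, adjusted p = 0.129, exact permutation p = 0.1) and did not pass.

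Clec4a1 and Clec4a3 are close relatives of Clec4a2 whose signalling is less well described. Clec4a1 (ENSMUSG00000049037.8, chromosome 6 from 122921848 to 122934619, plus strand) had 0, 0.0384 and 0 FPKM in NRASG12D, 18.0, 11.9 and 10.8 FPKM in NUP98-NSD1, and 24.2, 37.9 and 6.49 FPKM in NUP98-NSD1+NRASG12D libraries. Clec4a3 (ENSMUSG00000043832.13, chromosome 6 from 122952515 to 122969875, plus strand) had 0, 0.0532 and 0 FPKM in NRASG12D, 17.2, 11.0 and 10.4 FPKM in NUP98-NSD1, and 16.8, 27.3 and 6.78 FPKM in NUP98-NSD1+NRASG12D libraries. Both were at or under the level of 3 fragments in each NRASG12D library. Replicate 3 with both was the lowest of the 6 libraries with the fusion for either gene, and replicate 2 with both the highest. Clec4a1 rose over NRASG12D cells by 3.81 (standard error 0.19, adjusted p = 5.52e-05) with NUP98-NSD1 and by 4.26 (standard error 0.56, adjusted p = 0.00146) with both, and Clec4a3 by 3.74 with the fusion alone (standard error 0.19, adjusted p = 6.61e-05) and by 3.95 with both (standard error 0.44, adjusted p = 0.000755). With values this near 0 the fold change depends on the pseudocount, and with 0.1 in place of 1 the change in NUP98-NSD1 cells became 6.90 for Clec4a1 and 6.78 for Clec4a3. Between the groups with the fusion the differences were 0.45 for Clec4a1 (-0.93 to 1.83, adjusted p = 0.739, exact permutation p = 0.6) and 0.22 for Clec4a3 (-0.89 to 1.32, adjusted p = 0.859, exact permutation p = 0.7). Both turned negative without replicate 2 of NUP98-NSD1+NRASG12D, at -0.05 and -0.21.

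Clec10a encodes MGL1, a receptor of macrophages and dendritic cells that takes up ligands with terminal galactose. It is the only one of the receptor genes outside chromosome 6 (ENSMUSG00000000318.16, chromosome 11 from 70156197 to 70170834, plus strand) and the only one whose order of groups was different. Its level was 19.0, 35.6 and 24.6 FPKM in NRASG12D libraries, 40.9, 41.8 and 40.9 FPKM in NUP98-NSD1 libraries, and 4.62, 16.6 and 3.21 FPKM in libraries with both. The NUP98-NSD1 libraries were nearly alike, at 41.2 ± 0.567 FPKM (SD, n = 3), and lay above all NRASG12D libraries, while the libraries with both lay below them. With both, Clec10a fell by 2.50 on the log2 scale against NUP98-NSD1 cells (standard error 0.50, 95% confidence interval -3.68 to -1.32, adjusted p = 0.0297), lower in 3 of 3 libraries. Against NRASG12D cells it rose by 0.67 in NUP98-NSD1 cells (0.19 to 1.14, adjusted p = 0.0282) and fell by 1.83 in NUP98-NSD1+NRASG12D cells (-3.09 to -0.58, adjusted p = 0.0329). Each of these calls could be lost by leaving out a library. The rise in NUP98-NSD1 cells had an adjusted p of 0.0597 and 0.0842 without NRASG12D replicates 1 and 3 and of 0.0724, 0.0812 and 0.0579 without NUP98-NSD1 replicates 1, 2 and 3, with 0.00511 to 0.294 over the 13 alternatives. It was also lost after median-ratio scaling, which took it to 0.37 (adjusted p = 0.161), after quantile normalization (0.37, adjusted p = 0.152), without the filter on low values (adjusted p = 0.113) and with all 9 libraries in a single fit (adjusted p = 0.294). The fall against NRASG12D cells had an adjusted p of 0.0608, 0.105 and 0.0906 without NRASG12D replicates 1, 2 and 3 and of 0.0882 and 0.0883 without NUP98-NSD1+NRASG12D replicates 1 and 3, with 0.00221 to 0.112 over the alternatives. For the fall against NUP98-NSD1 cells it was 0.0865, 0.102 and 0.111 without NUP98-NSD1 replicates 1, 2 and 3 and 0.0782 without NUP98-NSD1+NRASG12D replicate 3, with 0.000996 to 0.131 over the alternatives.

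The library with the highest level was often the same for many of the receptor genes, which was not compared with other genes. Among the NRASG12D libraries, replicate 2 had the highest level for 9 of the 10 genes, and replicate 1 alone had the lowest for 7 and shared a 0 with replicate 3 for Clec4a1 and Clec4a3. Among the NUP98-NSD1 libraries, replicate 1 was the highest for 7 genes and replicate 3 the lowest for 7. The libraries with both were less uniform, with replicate 2 the highest for 6 genes, replicate 3 for 3 and replicate 1 for 1. Within that group the ratio of the highest to the lowest library was 10.3 for Clec7a, 6.48 for Clec4n, 5.83 for Clec4a1, 5.16 for Clec10a and 4.03 for Clec4a3, and it was under 3.5 for the other 5 genes.

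Of the receptor genes, 9 lie on chromosome 6, and 6 of these stand in a single stretch of 368.0 kb, from 122921848 to 123289870. It holds 13 genes in the order Clec4a1, Clec4a3, Clec4a4, Clec4b1, Clec4a2, Gm44132, Gm44147, Clec4b2, Gm22946, Gm5883, Clec4n, Clec4d and Clec4e. The receptor genes there run on the plus strand but for Clec4e. Clec4a4, Clec4b1 and Clec4b2 are the other protein-coding genes between them. Each was called higher in both comparisons with NRASG12D cells, where 42.2% and 24.2% of all tested genes were. All stayed under 1 FPKM in every NRASG12D library and passed the filter only through the groups with the fusion. The filter itself therefore favours a difference for them. Clec4b2 had 0, 0.0527 and 0 FPKM in NRASG12D, 11.9, 8.89 and 2.60 FPKM in NUP98-NSD1, and 9.10, 15.5 and 6.84 FPKM in NUP98-NSD1+NRASG12D libraries, levels near those of Clec4a1 and Clec4a3. Clec4a4 and Clec4b1, between Clec4a3 and Clec4a2, were lower, with at most 5.47 and 2.40 FPKM in any library. The pseudogene Gm44147, of 94 bp, was listed at 0 with NRASG12D, reached 106 FPKM with NUP98-NSD1, and stood at 42.8, 249 and 154 FPKM with both. Of its stretches of 50 bases, 24.4% also occur in Clec4n, so the values of this pseudogene and of Clec4n are not independent. Gm5883 had between 5.33 and 14.0 FPKM in all libraries, and Gm44132 and Gm22946 were listed at 0 throughout.

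**Figure D2:**
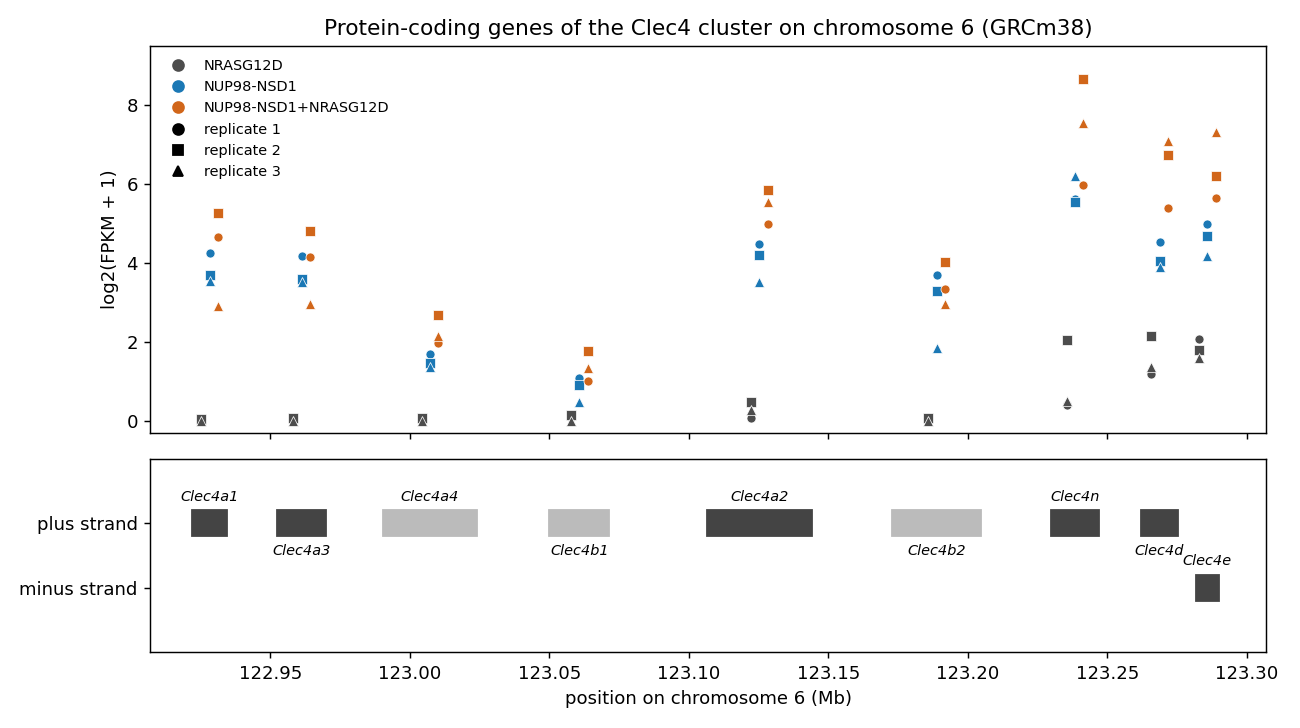
Levels as log2(FPKM + 1) of the 9 protein-coding genes in the stretch of chromosome 6 that holds Clec4a1 to Clec4e (top, 1 point per library, shaped by replicate), above a map of the genes to scale in Mb of GRCm38 (bottom, dark boxes for the receptor genes described here and grey boxes for the others). Clec4a4 and Clec4b1 reach at most 5.47 and 2.40 FPKM, while Clec4n reaches 404 FPKM in replicate 2 of NUP98-NSD1+NRASG12D.

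Sequence shared with other genes could blur the levels of near relatives. Of the 50-base stretches in the transcripts of Clec10a, 9.02% also occur in other genes, 8.49% in its relative Mgl2. For Clec4a2 the share was 6.83%, with 3.85% in Clec4a4 and 2.30% in Clec4b1. It was 0.686% for Clec4n, 0.457% for Clec12a and 0% for the other 6 receptor genes. Clec4a2 also contains the pseudogene Gm44132 on the same strand, and no other receptor gene overlaps a neighbour.

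As a description, each receptor gene was set beside the tested gene outside the list whose log2(FPKM + 1) followed it most closely over the 9 libraries. Among 13483 genes Pearson's r was 0.996 for Clec7a with Ms4a4a, 0.99 for Clec4n with Ctss, 0.997 for Clec4d with Itgam, 0.996 for Clec4e with Aldh3b1 and 0.997 for Clec5a with Wasf2. It was 0.995 for Clec4a1 with Slc12a9, 0.998 for Clec4a2 with Fabp5, 0.993 for Clec4a3 with Ms4a6c and 0.998 for Clec12a with Rgcc. These values include the differences between the groups, and correlations within groups were not computed. The nearest gene to Clec10a was Gm22107, a small nuclear RNA gene of 100 bp (r = 0.985), whose short length makes its FPKM uncertain. Itgam, an integrin chain of macrophages and neutrophils, had 0.0263, 0.796 and 0.0219 FPKM in NRASG12D, 16.8, 12.0 and 12.1 FPKM in NUP98-NSD1, and 31.6, 117 and 138 FPKM in NUP98-NSD1+NRASG12D libraries, where Clec4d had 41.1, 106 and 135 FPKM.

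Promoters are shown for 5 receptor genes that rose in both comparisons with NRASG12D cells, 4 activating and 1 inhibitory. RefSeq sequences on GRCm38.p6, from 250 bases before to 50 after the start, were found for 8 of the 10 genes, which have 10 promoters, and none were found for Clec4n and Clec10a. Sequence motifs, searched on both strands, were picked with the expression results known, and the motif in capitals was chosen after the matches were seen. GAGGAA, the core bound by PU.1, occurs in 8 of the 10 promoters, of all genes but Clec4a2, and in 28.3% of all 32851 promoters. All 5 promoters shown hold it, while those without it, the Clec4a2 promoter and 1 Clec4a3 promoter, are not shown. The longer GAGGAAGT, which contains GAGGAA, is in 0 of the 10 and in 3.2% of all promoters. TGTGGT (RUNX) was found in 6 of the 10 and 16.8% of all promoters, TATAAA in 4 and 13.6%, TTGCNNAA (C/EBP) in 2 (Clec4e and Clec12a) and 10.8%, and TGANTCA (AP-1) in 2 (Clec4a2 and Clec12a) and 7.8%. The 2 promoters of Clec7a overlap and share a GAGGAA site, and the 2 of Clec4a3 overlap and share a TGTGGT site. Counted by gene, GAGGAA is found in 7 of the 8 genes and TGTGGT in 5. A match is a description of the letters and not a binding site. The sequences are written from 5′ to 3′ on the strand of the gene, with GAGGAA or its reverse complement TTCCTC in capitals, for Clec7a (chr6:129472730-129473029, minus), Clec4d (chr6:123261857-123262156, plus), Clec4e (chr6:123289822-123290121, minus), Clec5a (chr6:40585756-40586055, minus) and Clec12a (chr6:129349994-129350293, plus).
Clec7a: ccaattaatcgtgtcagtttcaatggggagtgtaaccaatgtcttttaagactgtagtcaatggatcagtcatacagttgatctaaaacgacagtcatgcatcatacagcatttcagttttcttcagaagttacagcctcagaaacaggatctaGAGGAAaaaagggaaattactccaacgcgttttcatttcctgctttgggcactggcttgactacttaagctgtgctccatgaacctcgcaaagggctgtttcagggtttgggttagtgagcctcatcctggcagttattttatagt
Clec4d: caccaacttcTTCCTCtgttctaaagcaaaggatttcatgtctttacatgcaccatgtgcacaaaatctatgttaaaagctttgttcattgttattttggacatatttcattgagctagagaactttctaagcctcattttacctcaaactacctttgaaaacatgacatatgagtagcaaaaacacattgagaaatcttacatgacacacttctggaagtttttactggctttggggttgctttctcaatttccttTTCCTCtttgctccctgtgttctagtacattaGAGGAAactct
Clec4e: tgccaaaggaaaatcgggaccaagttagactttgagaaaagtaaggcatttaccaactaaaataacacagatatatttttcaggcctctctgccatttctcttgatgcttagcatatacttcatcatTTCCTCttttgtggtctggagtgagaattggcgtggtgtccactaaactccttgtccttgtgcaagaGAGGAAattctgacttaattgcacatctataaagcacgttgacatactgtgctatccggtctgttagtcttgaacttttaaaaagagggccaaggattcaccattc
Clec5a: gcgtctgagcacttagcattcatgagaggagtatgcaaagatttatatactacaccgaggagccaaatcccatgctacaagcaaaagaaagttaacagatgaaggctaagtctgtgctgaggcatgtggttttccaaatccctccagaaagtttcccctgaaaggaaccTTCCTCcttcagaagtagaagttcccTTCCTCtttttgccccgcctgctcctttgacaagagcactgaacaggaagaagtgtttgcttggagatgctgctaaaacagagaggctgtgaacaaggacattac
Clec12a: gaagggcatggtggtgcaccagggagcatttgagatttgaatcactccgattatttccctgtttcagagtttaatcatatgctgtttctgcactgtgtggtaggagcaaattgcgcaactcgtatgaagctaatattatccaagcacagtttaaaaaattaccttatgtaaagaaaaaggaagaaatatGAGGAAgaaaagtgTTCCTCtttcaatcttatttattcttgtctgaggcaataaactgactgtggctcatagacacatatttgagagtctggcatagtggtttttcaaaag
The motif stands 96 bases before the start in Clec7a, 240 before and 8 and 40 after it in Clec4d, 123 and 56 before it in Clec4e, 81 and 55 before it in Clec5a, and 61 and 47 before it in Clec12a.

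No adaptor through which the activating receptors signal was called higher in any of the comparisons. Fcer1g, the partner of Clec4n, Clec4d and Clec4e, had 1182, 1140.2 and 1062 FPKM in NRASG12D, 1077, 1018 and 1128 FPKM in NUP98-NSD1, and 652, 1251 and 1458 FPKM in NUP98-NSD1+NRASG12D libraries. Tyrobp, the partner of Clec5a, had 668, 451 and 672 FPKM, 496, 442 and 388 FPKM, and 629, 835 and 1019 FPKM in the same order of groups. Both were abundant in every library, those in which Clec4n and Clec5a were near 0 included. Of the 3 adaptor genes, 0 were higher and 1 was lower in either comparison with NRASG12D cells, where 42.2% and 9.98% of all tested genes were with NUP98-NSD1 and 24.2% and 14.1% with both, and 0 passed between the groups with the fusion, beside 2.30% and 6.31%, where their median log2 fold change was -0.02. There Tyrobp was higher with both in 3 of 3 libraries without overlap, as its partner Clec5a was, at a log2 fold change of 0.88 (adjusted p = 0.0733) that passed without NUP98-NSD1+NRASG12D replicate 1 (1.07, adjusted p = 0.0206), with all 9 libraries in a single fit (0.0317) and with array weights (0.00862). Fcer1g was lowest in replicate 1 and highest in replicate 3 of the libraries with both, as Clec4d and Clec4e were. Its partner Clec4n was highest in replicate 2 there. Tyrobp had the same order as Fcer1g, while its partner Clec5a was lowest in replicate 2. The log2 fold change of Fcer1g in NUP98-NSD1 over NRASG12D cells was -0.07 (adjusted p = 0.543), and it was -0.38 (adjusted p = 0.0223) after median-ratio scaling, with 0.0223 to 0.861 over the alternatives. For Tyrobp it was -0.42 (adjusted p = 0.0833), and -0.72 (adjusted p = 0.0173) after median-ratio scaling and -0.61 (adjusted p = 0.0146) without NRASG12D replicate 2, with 0.0146 to 0.247 over the alternatives. Hcst, the DAP10 gene, had 50.0, 55.1 and 59.1 FPKM in NRASG12D, 41.2, 40.9 and 42.1 FPKM in NUP98-NSD1, and 26.5, 24.9 and 30.5 FPKM in libraries with both. Its groups did not overlap, and it fell by 0.39 (adjusted p = 0.00842) with NUP98-NSD1 and by 0.98 (adjusted p = 0.00261) with both, while the difference between the groups with the fusion missed the threshold (-0.59, adjusted p = 0.0512).

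Of 14 genes for signalling through Syk and Card9, 13 were tested, and Src was not. In NUP98-NSD1 over NRASG12D cells 7 of the 13 were higher and 2 lower, where 42.2% and 9.98% of all tested genes were, and these 9 became 5 without the filter on low values and 5 with all 9 libraries in a single fit. Of the 7 higher, 3 passed the filter through the groups with the fusion. In NUP98-NSD1+NRASG12D over NRASG12D cells 7 were higher and 1 lower, where 24.2% and 14.1% of all tested genes were. Of these 7, 3 also passed the filter through the groups with the fusion. Between the groups with the fusion 1 was higher and 0 were lower, beside 2.30% and 6.31% of all tested genes. The median log2 fold changes of the 13 genes were 0.39, 0.70 and 0.36 in the 3 comparisons, where those of all tested genes were 0.27, 0.23 and -0.06. Syk had 18.3, 20.2 and 18.9 FPKM in NRASG12D, 26.4, 24.3 and 22.5 FPKM in NUP98-NSD1, and 27.3, 36.2 and 31.9 FPKM in NUP98-NSD1+NRASG12D libraries. The groups were apart, but the rise of 0.33 (adjusted p = 0.0205) in NUP98-NSD1 cells was near the median of all genes and fell to 0.04 (adjusted p = 0.679) after median-ratio scaling and 0.02 (adjusted p = 0.866) after quantile normalization. It was also lost without NRASG12D replicate 1 or 3 (adjusted p = 0.0705 and 0.0573) and NUP98-NSD1 replicate 1 or 2 (0.0778 and 0.0665), and the alternatives spanned 0.00376 to 0.866. The rise of 0.70 with both (adjusted p = 0.013) was lost after either scaling (0.0689 and 0.093) and without NRASG12D replicate 1 or 3 (0.0655 and 0.0623), within 0.00283 to 0.093. Card9 had 8.39, 1.90 and 3.11 FPKM in NRASG12D, 18.4, 17.0 and 11.6 FPKM in NUP98-NSD1, and 27.1, 17.2 and 19.8 FPKM in libraries with both, and NRASG12D replicate 1 stood above the other NRASG12D libraries. It rose by 1.77 (adjusted p = 0.011) and 2.19 (adjusted p = 0.00762) over NRASG12D cells, the former lost without the filter on low values (adjusted p = 0.0572).

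Abundant genes of this list include Prkcd, Vav1, Plcg2, Lyn and Bcl10, of which Vav1, Lyn and Bcl10 passed in none of the comparisons. Prkcd fell by 0.38 with NUP98-NSD1 (adjusted p = 0.00725, lost with all 9 libraries in a single fit at 0.138) and did not pass with both (-0.30, adjusted p = 0.291), and Malt1 fell by 0.57 (adjusted p = 0.00832) and by 0.76 (adjusted p = 0.0341). Plcg2 rose by 0.95 (adjusted p = 0.00323) with both, while its rise of 0.39 (adjusted p = 0.0293) with NUP98-NSD1 was lost in 10 of 13 alternatives. These were either scaling (0.486 and 0.519), no filter on low values (0.0975), a single fit (0.0808), a replicate block (0.0524), and fits without NRASG12D replicate 1, 2 or 3 (0.0907, 0.0714 and 0.0535) or NUP98-NSD1 replicate 1 or 2 (0.0964 and 0.0961), in a range of 0.00159 to 0.519.

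The Src family kinase Fgr, which phosphorylates receptor motifs in myeloid cells, was picked out after its values were seen. Fgr had 0.0247, 0.0843 and 0 FPKM in NRASG12D, 5.32, 2.13 and 3.57 FPKM in NUP98-NSD1, and 9.67, 11.4 and 7.06 FPKM in NUP98-NSD1+NRASG12D libraries. It had separate ranges in the 3 groups, as Clec4d and Clec4e had. Fgr rose by 2.12 (adjusted p = 0.00121) with NUP98-NSD1 and by 3.30 (adjusted p = 0.000101) with both over NRASG12D cells, and the difference of 1.19 between the groups with the fusion did not pass (adjusted p = 0.0575).

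Among the phosphatases that inhibitory receptors recruit, Ptpn6 and Inpp5d moved in opposite directions. Ptpn6, which encodes SHP-1, had 75.3, 80.0 and 72.0 FPKM in NRASG12D, 163, 129 and 112 FPKM in NUP98-NSD1, and 202, 171 and 216 FPKM in NUP98-NSD1+NRASG12D libraries. Inpp5d, which encodes the lipid phosphatase SHIP-1, had 162, 184 and 191 FPKM, 87.6, 85.1 and 115 FPKM, and 39.2, 65.4 and 43.3 FPKM in the same order. Ptpn6 was lowest and Inpp5d highest in the NRASG12D libraries, in each case without overlap between groups. Ptpn6 rose by 0.80 (adjusted p = 0.00393) with NUP98-NSD1 and by 1.36 (adjusted p = 0.000787) with both, and Inpp5d fell by 0.91 (adjusted p = 0.00222) and by 1.87 (adjusted p = 0.000901). Ptpn11, which encodes SHP-2, passed in none of the comparisons (adjusted p = 0.088, 0.0844 and 0.712), and Inppl1 fell with NUP98-NSD1 (-1.29, adjusted p = 0.00405) but did not pass with both (-0.95, adjusted p = 0.275). Of the 4 phosphatase genes tested, 1 was higher and 2 were lower in NUP98-NSD1 over NRASG12D cells, 1 was higher and 1 lower with both, and 0 passed between the groups with the fusion in limma. The shares of all tested genes were 42.2% higher and 9.98% lower, 24.2% and 14.1%, and 2.30% and 6.31% in these comparisons.

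Of the 8 genes for NF-kB and NFAT factors, on which Card9 and calcium signals of the receptors act, 0 were higher and 3 lower with NUP98-NSD1, 1 was higher and 3 lower with both, and 0 were higher and 1 lower between the groups with the fusion, beside 42.2% and 9.98%, 24.2% and 14.1%, and 2.30% and 6.31% of all tested genes. The first count of 3 was 5 after either scaling and 1 with all 9 libraries in a single fit. Rel fell by 0.58 (adjusted p = 0.00279, lost in the single fit at 0.0757) and by 1.18 (adjusted p = 0.0105), and Nfatc2 by 0.99 (adjusted p = 0.00947) and by 1.95 (adjusted p = 0.00318) over NRASG12D cells, while Relb rose by 1.16 (adjusted p = 0.00771) with both. Nfkb1, Rela and Nfkb2 passed in none of the comparisons. Nfatc1 fell by 1.03 (adjusted p = 0.00185) with both, but its fall of 0.30 with NUP98-NSD1 (adjusted p = 0.0455) was lost in 7 of 13 alternatives, among them those without NRASG12D replicate 1, 2 or 3 (0.0828, 0.0975 and 0.122) and NUP98-NSD1 replicate 1 or 2 (0.145 and 0.146), within 0.00292 to 0.146. The call between the groups with the fusion was also Nfatc1 (-0.73, adjusted p = 0.0401), lost in 8 of 13, among them those without NUP98-NSD1 replicate 1, 2 or 3 (0.11, 0.143 and 0.16) and NUP98-NSD1+NRASG12D replicate 3 (0.113), within 0.00689 to 0.16.

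**Figure D3:**
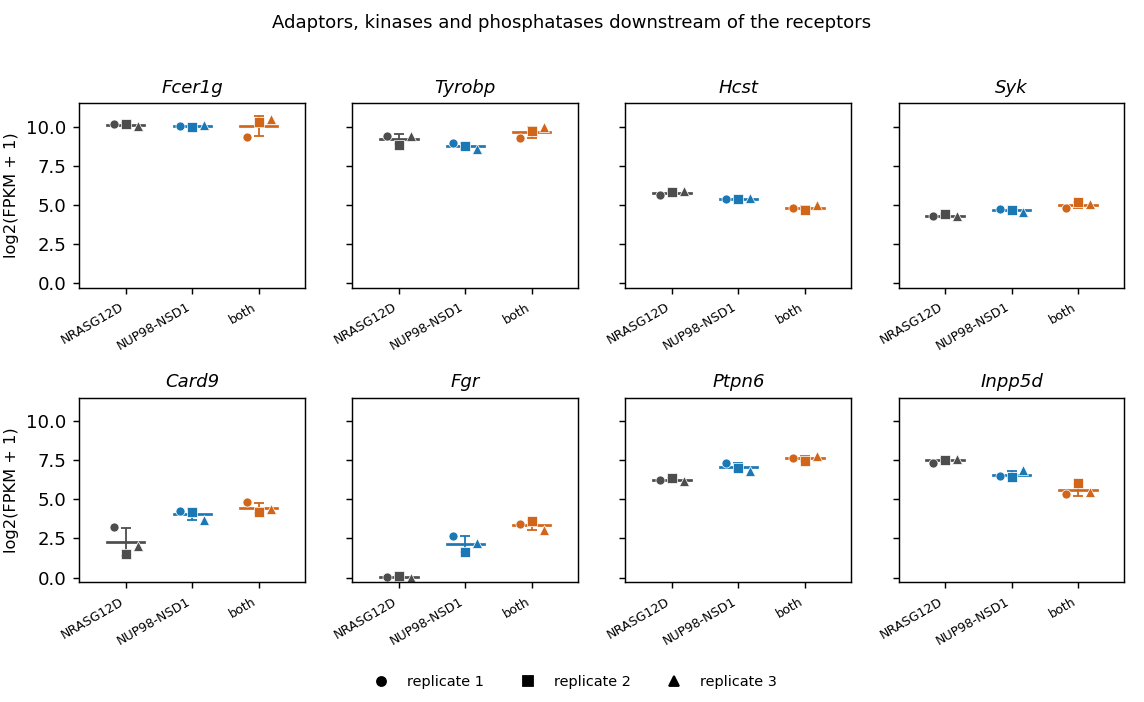
Levels as log2(FPKM + 1) of adaptor, kinase and phosphatase genes that act with the receptors, drawn as points per library with a line at the mean and an error bar of 1 SD over the 3 libraries of a group. Fcer1g and Tyrobp are high in all 9 libraries, while Fgr is under 1 FPKM in each NRASG12D library.

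Genes that these receptors can induce were taken from a list of 12 cytokine, chemokine and early response genes, of which 8 were tested. In NUP98-NSD1 over NRASG12D cells 6 were higher and 0 lower, with both 3 were higher and 2 lower, and between the groups with the fusion 1 was higher and 3 were lower, beside the same shares of all tested genes, 42.2% and 9.98%, 24.2% and 14.1%, and 2.30% and 6.31%. The last 4 calls became 1 without the filter on low values and 1 without NUP98-NSD1 replicate 3. Of the 6 higher with NUP98-NSD1, 3 passed the filter only through the groups with the fusion. So did all 3 that were higher with both than in NRASG12D cells. Il6 had 35.9, 28.5 and 28.2 FPKM in NRASG12D, 32.6, 35.9 and 36.8 FPKM in NUP98-NSD1, and 0.871, 5.67 and 0.613 FPKM in libraries with both. It was low in every library with both, and fell there by 3.54 (adjusted p = 0.00229) against NRASG12D and by 3.73 (adjusted p = 0.0107) against NUP98-NSD1 cells, the latter lost without NUP98-NSD1 replicate 3 (adjusted p = 0.0517) and without the filter on low values (0.0687). Cxcl2, a neutrophil chemokine, had 0.0232, 0 and 0.192 FPKM in NRASG12D, 2.34, 2.27 and 2.28 FPKM in NUP98-NSD1, and 9.33, 24.9 and 20.2 FPKM in libraries with both. Its ranges rose from group to group like those of Clec4d and Clec4e, by 1.63 (adjusted p = 0.000325) and 4.06 (adjusted p = 0.00026) over NRASG12D cells. Its rise of 2.44 between the groups with the fusion (adjusted p = 0.0107) was lost without NUP98-NSD1 replicate 3 (0.0517) and without the filter on low values (0.0647), within 0.000823 to 0.0647. Egr3 rose by 1.12 (adjusted p = 0.00628) with NUP98-NSD1 and fell by 2.09 (adjusted p = 0.00142) with both against NRASG12D cells, the same pair of directions as Clec10a. Egr2 rose by 2.06 with NUP98-NSD1 (adjusted p = 0.00159) and did not pass elsewhere, and Nlrp3 passed in none of the comparisons. Tnf rose by 1.54 (adjusted p = 0.000823) with NUP98-NSD1, and its fall of 1.98 from there to the libraries with both (adjusted p = 0.0417) was lost in 8 of 13 alternatives, among them those without NUP98-NSD1 replicate 1, 2 or 3 (0.117, 0.139 and 0.127) and NUP98-NSD1+NRASG12D replicate 3 (0.0795), within 0.00399 to 0.166.

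Other C-type lectin genes were counted for comparison, and 14 of 45 were tested. Against NRASG12D cells 10 were higher and 1 lower with NUP98-NSD1, and 9 were higher and 1 lower with both. Of those higher, 9 in either comparison (all but Cd72) were under 1 FPKM in at least 2 NRASG12D libraries, so the filter favours a difference for them as it does for 7 of the receptors. With all 9 libraries in a single fit the 11 called with NUP98-NSD1 became 7. Between the groups with the fusion 0 were higher and 1 was lower, and the median log2 fold change was 0.63. Of all tested genes 42.2% were higher and 9.98% lower with NUP98-NSD1, 24.2% and 14.1% with both, and 2.30% and 6.31% between the groups with the fusion. Mgl2, the relative of Clec10a, had 0.686, 1.06 and 0.717 FPKM in NRASG12D, 46.8, 54.5 and 9.49 FPKM in NUP98-NSD1, and 30.6, 17.0 and 15.0 FPKM in libraries with both. Unlike Clec10a it was near 1 FPKM in NRASG12D cells, and it rose by 4.06 (adjusted p = 0.00218) with NUP98-NSD1 and by 3.53 (adjusted p = 0.000216) with both. Mrc1, the macrophage mannose receptor, rose by 3.36 (adjusted p = 6.61e-05) and 4.53 (adjusted p = 0.0094), with 9.89, 132 and 9.61 FPKM in the libraries with both. Clec4b2 rose by 2.92 (adjusted p = 0.0024) with NUP98-NSD1, and Clec2i by 4.23 (adjusted p = 0.00121) with both. Cd69, an early activation antigen, had 329, 313 and 253 FPKM in NRASG12D, 379, 297 and 429 FPKM in NUP98-NSD1, and 73.3, 60.6 and 40.7 FPKM in libraries with both, and fell there by 2.37 (adjusted p = 0.000557) against NRASG12D and by 2.67 (adjusted p = 0.00556) against NUP98-NSD1 cells. Clec2d fell by 0.56 (adjusted p = 0.00709) with NUP98-NSD1, a call lost with all 9 libraries in a single fit (adjusted p = 0.141).

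Markers of cell types that carry these receptors differed between the groups as well, and their part in the result was not tested. All 10 monocyte and macrophage markers were higher with NUP98-NSD1 and with both than in NRASG12D cells, and 2 were higher with both than with NUP98-NSD1. For these and the other marker lists, the shares of all tested genes are 42.2% higher and 9.98% lower, 24.2% and 14.1%, and 2.30% and 6.31%. Of the markers higher than in NRASG12D cells, 7 of these 10 and 8 of 9 granulocyte markers passed the filter only through the groups with the fusion. Summed, they reached 48.2, 61.8 and 45.0 FPKM in NRASG12D, 952, 735 and 518.5 FPKM in NUP98-NSD1, and 1863, 3025 and 4703 FPKM in NUP98-NSD1+NRASG12D libraries. Ly6c2 was the most abundant of them in each library with the fusion and Cd68 in each NRASG12D library. The order of groups is that of the summed receptor genes, without overlap. Csf1r, a defining marker, had 0.0222, 1.28 and 0.0913 FPKM in the NRASG12D libraries, and replicate 2 was the highest as it was for 9 of the receptor genes. Of the 11 granulocyte markers, 9 were higher with NUP98-NSD1, 9 with both and 3 with both over NUP98-NSD1. Their sums were 29.7, 36.9 and 29.9 FPKM, 6126, 5821 and 1728 FPKM, and 14808, 8894 and 19862 FPKM. The most abundant was Ctsg in NRASG12D, Mpo in NUP98-NSD1 and replicate 1 with both, and S100a8 in replicates 2 and 3 with both. Ltf, Camp and Retnlg were listed at 0 in each NRASG12D library.

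Mast cell markers went both ways with NUP98-NSD1, and most were lower with both. Of 9, 3 were higher and 4 lower with NUP98-NSD1 than in NRASG12D cells, 2 were higher and 7 lower with both, and 7 were lower with both than with NUP98-NSD1. Their sums were 29634, 32165 and 30708 FPKM in NRASG12D, 26781, 26483 and 31376 FPKM in NUP98-NSD1, and 944, 4275 and 733 FPKM in libraries with both, where Cma1 was the most abundant gene with NRASG12D and Cpa3 in each library with the fusion. All libraries with both lie below the others in this sum, as they do for Clec10a. Cpa3, a defining marker, was listed at 0 with NRASG12D but reached 13413, 12564 and 14378 FPKM with NUP98-NSD1, and a 0 beside such levels of other mast cell genes may be a failed estimate. The overlap of the NRASG12D and NUP98-NSD1 sums rests on this gene. Without it, a step taken after the values were seen, the sums were 29634, 32165 and 30708 FPKM, then 13368, 13919 and 16998 FPKM, and then 591.0, 2454 and 453 FPKM, with no overlap between groups. The counts of the remaining 8 markers were 2 higher and 4 lower with NUP98-NSD1, 1 higher and 7 lower with both, and 6 lower with both than with NUP98-NSD1. The part of mast cell content in the receptor levels was not tested.

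Of 8 dendritic cell markers 4 were tested, with 3 higher with NUP98-NSD1, 2 with both and 0 between the groups with the fusion. Their sums were 1.44, 21.4 and 2.32 FPKM in NRASG12D, 459, 299 and 424 FPKM in NUP98-NSD1, and 475, 689 and 142 FPKM in NUP98-NSD1+NRASG12D libraries, with Cd74 the most abundant but for NRASG12D replicate 1 (Itgax), while Xcr1, Siglech and Zbtb46 stayed near 0. The 2 basophil markers were both higher with NUP98-NSD1 and 1 was higher with both, at sums of 48.4, 17.4 and 53.4, of 693, 1441 and 734.5, and of 310.2, 437 and 22.6 FPKM, led by Mcpt8 throughout. The 2 eosinophil markers gave the same counts, at sums of 0, 0.0213 and 0.0785, of 17.0, 26.7 and 5.33, and of 28.9, 209 and 2.87 FPKM, led by Prg2 in each library with the fusion. Replicate 2 with both was the highest of its group in each of these lists, as it was for Clec7a, Clec4n, Clec4a1, Clec4a2, Clec4a3 and Clec10a. Of 3 megakaryocyte markers, led by Itga2b in NRASG12D and NUP98-NSD1 and by Pf4 with both, 2 were higher and 1 lower with NUP98-NSD1, 1 was higher and 1 lower with both, and 1 was lower with both than with NUP98-NSD1. Their sums were 479, 563 and 493.5, then 241, 240.5 and 299, and then 75.7, 1209 and 115 FPKM, and Pf4 had 1157 FPKM in replicate 2 with both. Of 3 erythroid markers 2 were tested and higher with NUP98-NSD1, and 0 passed in the other comparisons, with sums of 0.559, 0.829 and 0.775, of 12.8, 14.5 and 10.3, and of 3.11, 8.44 and 1.19 FPKM, led by Hba-a1 in each library with the fusion. Every dendritic, eosinophil, erythroid and megakaryocyte marker called higher than in NRASG12D cells passed the filter only through the groups with the fusion. Of the basophil markers, 1 of the 2 higher with NUP98-NSD1 did so, and the 1 higher with both. The 3 B cell and 2 T cell markers did not reach 0.16 FPKM in any library and were not tested.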

How the data were processed

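FPKM were deposited by the authors, who used STAR 2.7.2a against GRCm38.p6 for alignment of read pairs and Cufflinks 2.2.1 for quantification, 1 table per library with no further scaling stated. Values of repeated identifiers were summed, and coordinates are counted from 1. A gene was tested if 3 or more of the 9 libraries reached 1 FPKM, and log2(FPKM + 1) was compared for each pair of groups over its 6 libraries with limma 3.58.1 in R 4.3.3 (eBayes with trend), with Benjamini-Hochberg adjustment over 13493 genes and a threshold of 0.05. Intervals are 95% confidence intervals of limma, and exact permutation tests were two-sided. Changes of genes with low FPKM are understated by the pseudocount. Depth was estimated in 3386 single-transcript genes longer than 2500 bp, taking the effective length as 150 bp under the full length, and between 86.3% and 89.7% of the low values lay within 0.1 of a whole fragment. The receptor genes and the lists of adaptor, signalling, phosphatase, NF-kB and NFAT, product, lectin and marker genes were chosen with earlier results of these data known. Genes named from a list are up to 6 of those with the highest mean level, those needed for a role, and for lectins the 3 largest rises and falls past the threshold without overlap. Fgr, Malt1, Relb and markers named as most abundant or at 0 were added after their values were seen. Other pseudocounts, filters, scalings, fits, a replicate block and fits without each library were tried. Other software was Python 3.11.15 with numpy 2.4.6, pandas 2.3.3 and, for plots, matplotlib 3.10.9.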

Additional observations from a re-analysis of the deposited data

Results flagged for a closer look

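Clec10a was picked out because the groups carrying NUP98-NSD1 lay on opposite sides of the NRASG12D libraries. Every NUP98-NSD1 library (40.9, 41.8 and 40.9 FPKM) was above, and every NUP98-NSD1+NRASG12D library (4.62, 16.6 and 3.21 FPKM) below, the 19.0, 35.6 and 24.6 FPKM of NRASG12D. Both contrasts use the same NRASG12D libraries, and the difference between them is the comparison of NUP98-NSD1+NRASG12D with NUP98-NSD1 cells, a log2 fold change of -2.50. The pattern by which Clec10a was picked leaves no overlap between these groups, so the adjusted p of 0.0297 in limma is no separate test of it. In the same libraries the mast cell markers other than Cpa3, which was listed at 0 in each NRASG12D library, summed to 29634, 32165 and 30708 FPKM, 13368, 13919 and 16998 FPKM, and 591.0, 2454 and 453 FPKM for NRASG12D, NUP98-NSD1 and both. Their part in the level of Clec10a was not tested.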

How the results depend on the processing

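Over 13 alternatives, the 9 receptor genes other than Clec10a kept their direction and their call in both comparisons with NRASG12D cells. In NUP98-NSD1 over NRASG12D cells, 7036 genes passed, 3065 with all 9 libraries in a single fit and 4736 to 7948 without 1 library, and 9 or 10 of the receptors. In NUP98-NSD1+NRASG12D over NRASG12D cells, 5173 genes passed, and 2941 to 6327 without 1 library, with 3069, 3159 and 2941 without NRASG12D replicates 1, 2 and 3. Between the groups with the fusion, 1162 genes and 3 receptors passed, but 152 and 0 without the filter on low values (4576 genes at an unadjusted p under 0.05), which tests 38033 genes, 2251 and 4 with all 9 libraries in a single fit, 3500 and 6 with array weights, and 283 to 2509 and 0 to 5 without 1 library. With a replicate block the counts were 6864 genes and 10 receptors, 4531 and 10, and 801 and 2, Clec4a2 having lost its call (adjusted p = 0.0589). Same-numbered libraries gave no sign of pairing, with correlations of -0.18 to 0.16 after group means were removed. With 3 libraries per group these correlations cannot exclude a pairing. The cause of the changes in the counts was not tested.

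Signs turned for differences that had not passed. Between the groups with the fusion, Clec7a went from 0.55 to -0.086 with array weights and -0.34 without NUP98-NSD1+NRASG12D replicate 2, Clec4a1 from 0.45 to -0.24 and -0.049, and Clec4a3 from 0.22 to -0.27 and -0.21. Without NUP98-NSD1+NRASG12D replicate 3 the differences were largest, at 1.28, 1.14 and 0.73. Fcer1g went from -0.02 to 0.090 with median-ratio scaling, 0.31 with array weights, 0.017 without NUP98-NSD1 replicate 3 and, without 1 library, ranged from -0.25 (NUP98-NSD1+NRASG12D replicate 3) to 0.33 (replicate 1). Against NRASG12D cells with both it went from -0.09 to 0.20 with array weights and ranged from -0.32 to 0.26 without NUP98-NSD1+NRASG12D replicate 3 or 1.

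Scaling changed the balance of directions. Of the genes called in NUP98-NSD1 over NRASG12D cells, 80.9% were higher as deposited, 52.3% after median-ratio scaling and 46.7% after quantile normalization. With both over NRASG12D cells these shares were 63.1%, 53.1% and 41.8%, so quantile normalization turned the balance. The lowest levels are limited by depth, since Clec4a1 and Clec4a3 lay at or under 3 fragments in each NRASG12D library.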
